A study of Mus musculus with 6 samples.

Results

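The genes described here are named as mitochondrial ribosomal proteins, and nearly all encode subunits of the mitochondrial ribosome. They were chosen by name, as protein-coding genes of the mouse annotation whose symbol is Mrpl or Mrps followed by a digit. The letters l and s stand for the large and the small subunit, but Mrps30 and Mrps18a belong to the large subunit and Mrps36 to neither, and they were counted so. Some subunits carry other names and are described apart from the members. This rule uses no measured value. It gave 78 genes of 22028 annotated protein-coding genes, and 77 of the 78 were matched to a row among the 43432 genes listed in each expression table. The remaining gene, Mrpl33, was not analysed here. The libraries are poly(A)-selected RNA-seq of cortical neurons prepared from wild-type C57BL/6 mouse embryos at E16.5, with male and female pooled per the labels. Neurons of all groups were kept in culture for 7 days and silenced overnight with tetrodotoxin, a sodium channel blocker, and DL-AP5, an NMDA receptor antagonist. They were then exposed to KCl at 55 mM for 2 h or 6 h, or not at all (0 h, the silenced control). Each of the 3 time points has 2 replicate libraries. The study calls them biological replicates, and whether they came from separate cultures is not given in the sources used here. KCl opens voltage-gated calcium channels in every neuron of the dish, so it stands for synaptic activity only in part.

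Mitochondria keep a small genome of their own, which encodes core subunits of the respiratory chain, and translate it on a dedicated ribosome in the matrix. All proteins of this mitoribosome are encoded in the nucleus, made in the cytosol and imported. Some descend from proteins shared by all ribosomes, some from bacterial ribosomal proteins, and others were added in mitochondria. Neurons depend on oxidative phosphorylation for firing, and inherited defects of several mitoribosomal proteins cause disease of the brain and heart.

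Total expected counts ranged from 25959298 to 28573067 per library. Tubb3, the neuronal tubulin, stood at 1639 and 1679 TPM (a transcript level corrected for length and library total) at 0 h, at 834 and 989 TPM at 2 h and at 666 and 794 TPM at 6 h, while Gfap of astrocytes stood between 13.8 and 30.9 TPM. Tubb3 fell against the direction of most neuronal markers, which are described below. The replicates at 2 h differed most. Over the 71 members whose normalized counts averaged 100 or more, the log2 ratio of replicate 1 to replicate 2 had an SD of 0.11 at 0 h, 0.216 after 2 h and 0.157 after 6 h.

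Promoters of the members were searched for 6 short motifs on both strands, from 250 bases upstream to 50 bases downstream of the RefSeq start (GRCm38.p6), for the 69 members with an entry. Of these motifs, 3 bind factors that are known to control nuclear genes for mitochondria, and they are shown here in members with different courses after KCl. Capitals mark the matched letters, all windows lie upstream of the start and each reads 5′ to 3′ on the strand of the gene. The NRF1 motif (GCGC, any base, then TGCGC) was found in Mrpl44, Mrpl17, Mrpl57, Mrpl9 and Mrpl30, the ETS motif CCGGAAG (bound by GABPA) in Mrps16 and Mrpl52, and the YY1 motif AAGATGGC in Mrpl36.
Mrpl44, chr1:79775973-79776002, + strand: agaagcacttGCGCACGCGCagtacactag
Mrpl17, chr7:105811117-105811146, - strand: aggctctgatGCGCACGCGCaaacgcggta
Mrpl57, chr14:57826172-57826201, + strand: tttgaatcctGCGCAGGCGCagaaggcgtc
Mrpl9, chr3:94443298-94443327, + strand: aggcgcagctGCGCATGCGCggggtccttc
Mrpl30, chr1:37890384-37890413, + strand: tgacgccgctGCGCCTGCGCtgtcttctat
Mrps16, chr14:20393546-20393575, - strand: ttgggggcgctCTTCCGGgcttcaggctct
Mrpl52, chr14:54426851-54426880, + strand: caagatgtcggCTTCCGGttttcccggcag
Mrpl36, chr13:73330968-73330997, + strand: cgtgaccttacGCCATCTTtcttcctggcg
As the following sections show, Mrpl44 fell at 2 h and returned, Mrpl17, Mrpl57, Mrps16, Mrpl52 and Mrpl36 were lower at 6 h, Mrpl9 was higher at 6 h and Mrpl30 passed the test at neither time.

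The NRF1 motif was found in 13 of the 69 promoters (18.8%), against 5.19% of 27025 genes with a promoter of the same length and 11.2% of 10604 expressed protein-coding genes. The ETS motif was found in 26 members (37.7%, against 9.93% and 18.9%) and the YY1 motif in 12 members (17.4%, against 3.19% and 4.97%). The motifs of the activity-regulated factors were rarer. The CREB motif TGACGTCA was found in 2 members (2.9%, against 2.03% and 3.56%) and the AP-1 motif TGANTCA in 3 members (4.35%, against 8.97% and 5.88%). The TATAAA sequence of the TATA box was found in 5 members (7.25%, against 15.7% and 8.59%). In a shorter window, from 100 bases upstream to 50 bases downstream, 1 member held it, against 8.08% of genes with a promoter. Of the 68 measured members with a promoter entry, 32 were called lower at 6 h against 0 h (47.1%, where 21.7% of all tested genes were). Among them were 5 of the 13 with the NRF1 motif, 15 of 25 with the ETS motif and 3 of 12 with the YY1 motif, the last of which (25%) is near the share of all genes. These are counts of letters and not of bound sites.

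The summed level of the members was lower after KCl. The 77 genes summed to 4497 and 4813 TPM in the silenced neurons, 3867 and 4319 TPM at 2 h and 3527 and 3564 TPM at 6 h. Both 6 h libraries and both 2 h libraries lay below both 0 h libraries. The means were 4655 ± 224 TPM at 0 h, 4093 ± 319 TPM at 2 h and 3545 ± 26.6 TPM at 6 h (SD, n = 2), so that the 2 h sum was 87.9% and the 6 h sum 76.2% of that at 0 h. Large-subunit members (50 genes) fell from a mean of 2863 TPM to 2159 TPM at 6 h and small-subunit members (26 genes) from 1723 TPM to 1307 TPM, which is 75.4% and 75.9% of the control. The difference between the 0 h and 6 h sums was larger than the spread between replicates. TPM is scaled to the library total, and the sums are not corrected for a shift of all genes on that scale. With counts scaled by library totals, the median log2 fold change of all genes was -0.156 at 2 h and -0.251 at 6 h. The median of the members relative to all genes was then -0.123 at 2 h and -0.322 at 6 h. An exact permutation test on 2 libraries against 2 cannot pass a threshold of 0.05, so no p is given for these sums. In bulk samples a smaller number of cells of a type and less RNA per cell cannot be told apart.

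**Figure D1:**
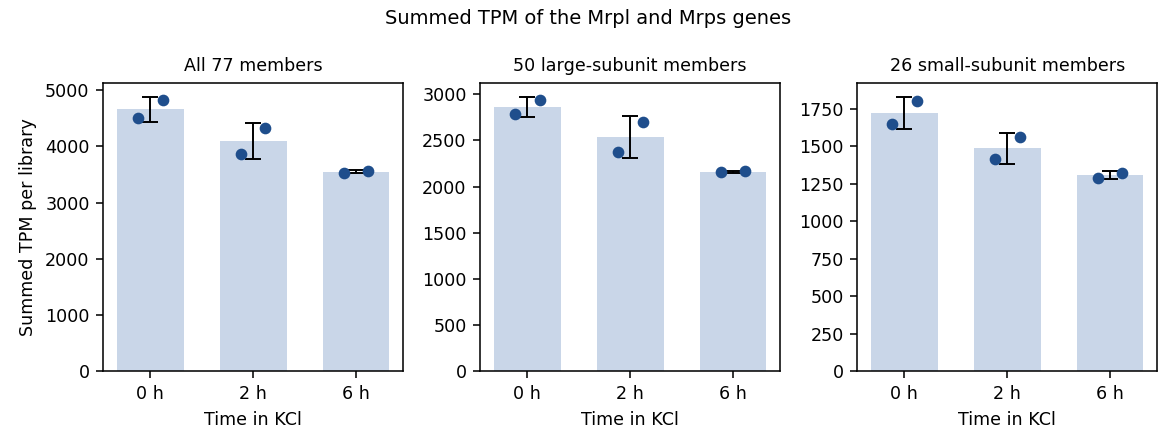
Summed TPM (vertical axis, from 0) of all 77 members, the 50 large-subunit members and the 26 small-subunit members before and after 2 h and 6 h of KCl; points are the 2 libraries of a time point, bars their mean and error bars the SD. The 6 h libraries, at 3527 and 3564 TPM over all members, lie below both 0 h libraries in all 3 panels.

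The levels of single members spanned a wide range. At 0 h the highest mean was 304.9 TPM for Mrps21, a small-subunit protein of bacterial descent. It was followed by Mrpl30 with 206.7 TPM and Mrpl48 with 204.6 TPM, both of the large subunit. Mrps21 and Mrpl30 kept their level, with means of 317.9 and 206.9 TPM at 6 h. The lowest means at 0 h were those of Mrpl57 (6.01 TPM), Mrpl34 (8.27 TPM) and Mrps28 (9.09 TPM). Mrpl30 and Mrpl48 differed by less than the SD between replicates of Mrpl48. The median member stood at 43.4 TPM at 0 h, 36.4 TPM at 2 h and 28.9 TPM at 6 h. These medians are not corrected for the fall of the median gene under library totals. That fall was -0.156 at 2 h and -0.251 at 6 h on the log2 scale.

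At 2 h, a small group of members fell sharply and none passed the test upwards. With the DESeq2 Wald test at an adjusted p of at most 0.05, 11 of 77 members were down-regulated against 0 h, where 14.2% of all tested genes were, and 0 were up-regulated, where 12.3% of all tested genes were. At an unadjusted p under 0.05 there were 2 higher and 15 lower members, and the quasi-likelihood test of edgeR called 1 higher and 15 lower. The share of members called lower was therefore close to that of all genes, and 66 members were not called. Both 2 h libraries lay below both 0 h libraries for 34 members, where this held for 31.1% of all tested genes, and above them for 14, where it held for 31.5%. The median log2 fold change of the members was -0.11, against 0.01 over all genes whose normalized counts averaged 10 or more. It was -0.01 relative to all genes without 2 h replicate 1 and -0.21 without 2 h replicate 2. Leaving out 0 h replicate 1 or 2 lowered the count of down-regulated members to 4 or 3, and leaving out either 6 h library lowered it to 7. With a correction for GC content, 3 members were called higher and 8 lower.

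At 2 h, 3 members passed the study's stricter rule of an adjusted p of at most 0.05 and more than a 2-fold change, all downward, as did 5.94% of all tested genes downward and 3.62% upward. Mrps2 (chr2:28468066-28471178), a small-subunit protein shared by all ribosomes, had normalized counts of 787 and 789.6 at 0 h, 219 and 186 after 2 h and 699 and 702 after 6 h. It was thus low in both 2 h libraries and near its starting level in both 6 h libraries. Its log2 fold change was -1.96 ± 0.16 (SE, adjusted p = 8.08e-33) at 2 h, 1.79 ± 0.16 from 2 h to 6 h (adjusted p = 4.52e-27) and -0.17 ± 0.15 at 6 h against 0 h (adjusted p = 0.361). Mrpl44 (chr1:79776018-79781445), a protein added in mitochondria that resembles ribonuclease III, followed the same course. Its normalized counts were 343 and 387 at 0 h, 107.8 and 107.5 after 2 h and 354 and 331 after 6 h. The log2 fold change of Mrpl44 was -1.76 ± 0.20 at 2 h (adjusted p = 1.63e-16) and 1.67 ± 0.20 from 2 h to 6 h (adjusted p = 5.58e-15). Mrpl1 (chr5:96209493-96266727), which forms the L1 stalk at the exit of spent tRNA, had normalized counts of 471 and 428 at 0 h, 229.7 and 191 after 2 h and 413 and 347 after 6 h. No library of Mrpl1 at 2 h reached those of the other times, and its log2 fold change was -1.09 ± 0.20 at 2 h (adjusted p = 6.43e-07). Mrps2, Mrpl44 and Mrpl1 were called lower at 2 h in each of 15 alternative fits, which comprise other tools, scalings and filters and the removal of each library in turn. When the test was set against a fold change of 2, which is not counted among the 15, Mrps2 and Mrpl44 passed and Mrpl1 did not.

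A dip followed by a return was seen in 7 members, which were called lower at 2 h and then higher from 2 h to 6 h. They were 9.09% of the members, close to the 8.67% of all tested genes with both calls. Beside these 3 they were Mrps31, Mrpl50, Mrpl19 and Mrpl47. Mrps31, a small-subunit protein added in mitochondria, stood at 387 and 439.9 at 0 h, 246 and 256 after 2 h and 353 and 336 after 6 h, a log2 fold change of -0.72 ± 0.18 at 2 h (adjusted p = 3.71e-04). Mrpl50 stood at 1491 and 1515 at 0 h, 1166 and 923 after 2 h and 1962 and 1888 after 6 h, and so ended above its starting level. The remaining 4 members called lower at 2 h, which are Mrpl15, Mrpl17, Mrps14 and Mrps18b, were still called lower at 6 h. Mrpl15 had normalized counts of 790.1 and 745 at 0 h, 488 and 539 after 2 h and 466 and 469 after 6 h. Of all 11, Mrpl19, Mrpl47 and Mrps18b hold non-whole counts and so share reads with other genes.

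By 6 h the decline was broader. Against 0 h, 34 of 77 members (44.2%) were down-regulated, where 21.7% of all tested genes were, and 5 (6.49%) were up-regulated, where 23.7% of all tested genes were. In either direction, 39 members (50.6%) were called, against 45.3% of all tested genes. Of the 34, 24 had no call at 2 h and passed the test downward from 2 h to 6 h as well. Both 6 h libraries lay below both 0 h libraries for 53 members, where this held for 39.6% of all tested genes, and above them for 17, where it held for 40.9%. The median log2 fold change of the members was -0.33, against -0.004 over all genes, and 56 of 77 members had a value below 0. The large subunit (22 of 50 lower, median -0.32) and the small subunit (12 of 26 lower, median -0.34) gave similar values. Scaling by library totals moved the median of all genes by -0.25, and 48 members were then called lower and 2 higher. The median of the members relative to all genes stayed at -0.32 under that scaling. Leaving out 0 h replicate 2 or 6 h replicate 1 lowered the count of down-regulated members to 19 or 20, and 18 of the 34 were called lower in each of the 15 alternative fits.

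**Figure D2:**
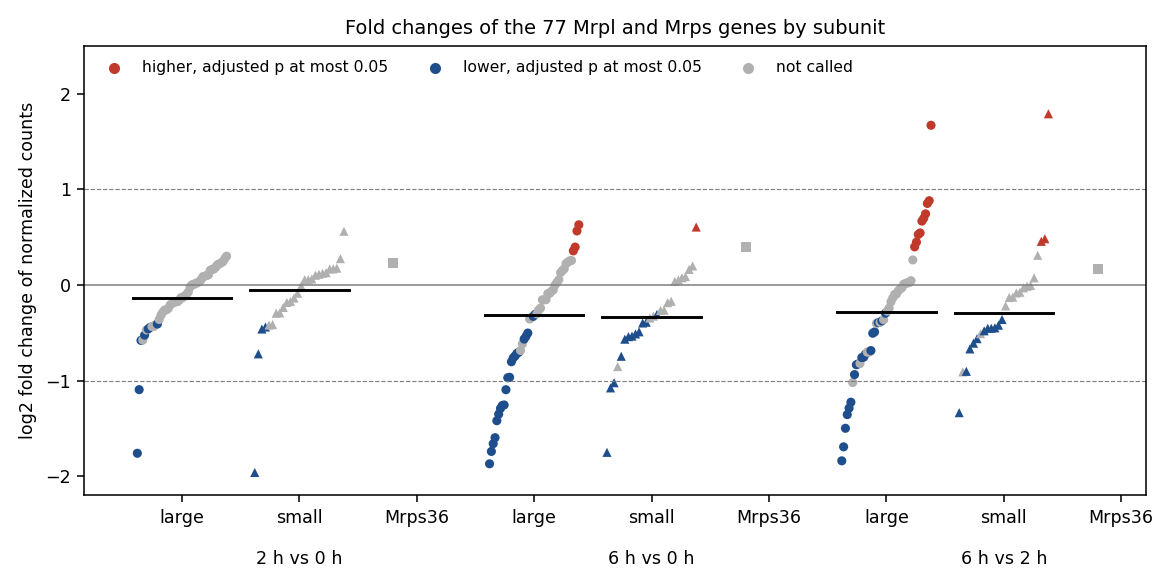
Log2 fold change of normalized counts (vertical axis) for each member in the 3 comparisons, ordered within large-subunit members (circles), small-subunit members (triangles) and Mrps36 (square); blue and red mark members called lower and higher at an adjusted p of at most 0.05, grey marks members not called, black bars are medians and dashed lines mark 2-fold changes. At 6 h against 0 h, 34 members are blue and 5 are red, and the most negative values reach -1.87.

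At 6 h, 13 members were down-regulated by more than 2-fold, where 10.2% of all tested genes were, and none of the 5 called higher reached that size, where 9.1% of all tested genes did. When the test itself was set against a fold change of 2, 4 members passed. The largest fall was that of Mrpl10 (chr11:97041560-97049213), the protein at the base of the stalk that recruits translation factors. Its normalized counts were 936 and 861 at 0 h, 727 and 862 after 2 h and 245 and 246 after 6 h. The 2 h libraries overlapped those at 0 h while both 6 h libraries lay far below, a log2 fold change of -1.87 ± 0.17 (adjusted p = 1.86e-27). Mrpl12, the stalk protein that sits on Mrpl10, had counts of 956 and 1042 at 0 h and 1091 and 1126 at 6 h, a log2 fold change of 0.15 ± 0.16 (adjusted p = 0.467). The difference between these 2 genes of 1 stalk was not tested.

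Mrps16, a small-subunit protein of bacterial descent, had normalized counts of 375 and 409 at 0 h, 279.6 and 308 after 2 h and 118 and 115 after 6 h, a log2 fold change of -1.75 ± 0.20 at 6 h (adjusted p = 4.72e-17). The 3 time points did not overlap, although the 2 h value did not pass the test (adjusted p = 0.0826). Mrpl24 (chr3:87919506-87923672), which lies near the exit of the protein tunnel, had counts of 849.5 and 889.9 at 0 h, 813 and 1049 after 2 h and 276 and 244 after 6 h. It changed by -1.74 ± 0.19 at 6 h (adjusted p = 4.16e-19), and Rrnad1, whose exons overlap it on the other strand, by -0.03 (adjusted p = 0.922). Mrpl36, a small zinc-binding protein of bacterial descent, had counts of 328.5 and 336 at 0 h, 234 and 258.5 after 2 h and 96.3 and 114 after 6 h. It was lower in both 6 h libraries than in any other, with a log2 fold change of -1.66 ± 0.21 (adjusted p = 1.43e-13).

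Mrpl2, which lies close to the peptidyl transferase centre, stood at 180.2 and 193 at 0 h and 63.1 and 76.4 at 6 h, a log2 fold change of -1.42 ± 0.27. Mrpl14, the contact of the assembly factor Malsu1, stood at 199 and 190.5 at 0 h, 174 and 287 after 2 h and 79.2 and 83.9 after 6 h. The 2 h libraries of Mrpl14 lay on both sides of the control, and its log2 fold change was -1.26 ± 0.31 at 6 h. Mrpl55 (-1.35 ± 0.26), Mrpl57 (-1.26 ± 0.27), Mrpl41 (-1.10 ± 0.17), Mrps17 (-1.08 ± 0.15) and Mrps18b (-1.02 ± 0.18) fell by more than 2-fold at well-measured counts. Mrpl52 (-1.60 ± 0.62, adjusted p = 0.0248) and Mrpl34 (-1.29 ± 0.52, adjusted p = 0.0293) did so at mean counts under 100, and neither call held in every alternative fit. Mrpl34 had 41.7 and 37.1 normalized counts at 0 h and 15 and 17.2 at 6 h.

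**Figure D3:**
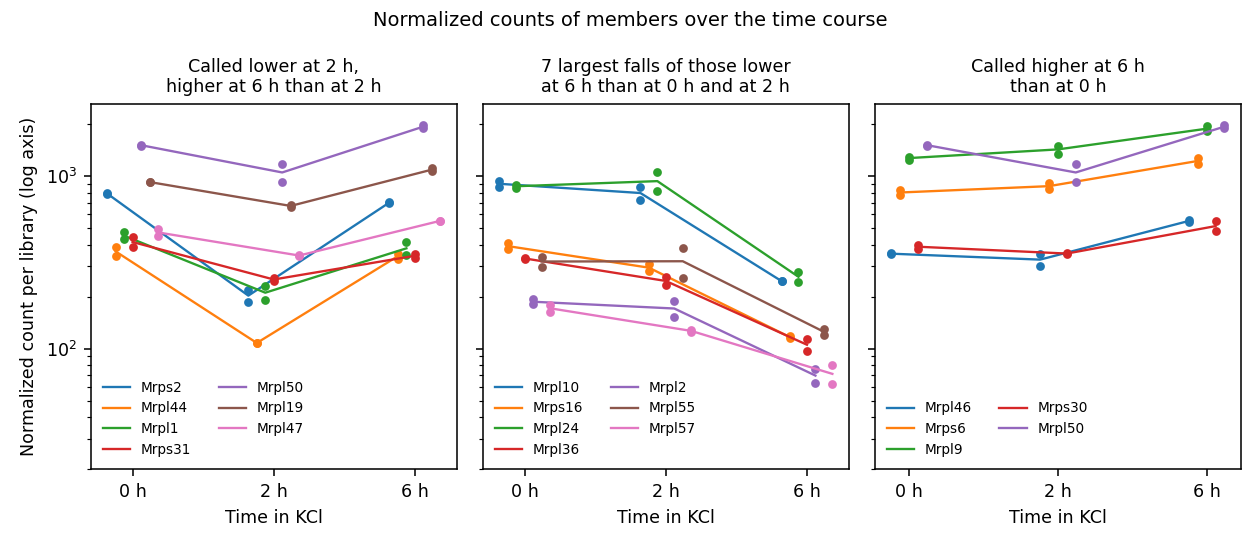
Normalized counts per library (vertical log axis) at the 3 time points for the 7 members that dipped at 2 h and returned (left), 7 members that were lower at 6 h than at both earlier times (middle) and the 5 members called higher at 6 h than at 0 h (right); points are the 2 libraries and lines join their means. Mrps2 and Mrpl44 dip at 2 h and return, while Mrpl10 and Mrpl24 stay near their starting level at 2 h and are lower in both 6 h libraries.

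Up-regulation at 6 h against 0 h was found for 5 members. Mrpl46 (chr7:78775236-78783531), a large-subunit protein added in mitochondria, had normalized counts of 351 and 357 at 0 h, 299.6 and 355 after 2 h and 557.5 and 538 after 6 h, a log2 fold change of 0.63 ± 0.17 (adjusted p = 6.28e-04). Mrps6, a small-subunit protein of bacterial descent, had counts of 827 and 773 at 0 h, 833 and 909 after 2 h and 1263 and 1172 after 6 h. Both 6 h libraries of Mrps6 lay above all others, with a log2 fold change of 0.61 ± 0.13 (adjusted p = 2.46e-05). The exons of Mrps6 overlap those of Slc5a3, a transporter of the osmolyte myo-inositol, on the same strand. Slc5a3 had normalized counts of 947 and 875 at 0 h and 1760.0 and 1780.0 at 6 h, a log2 fold change of 0.96 (adjusted p = 3.27e-06), and its part in the value of Mrps6 was not tested. Mrpl9 (0.57 ± 0.12, adjusted p = 2.43e-05), Mrps30 (0.40 ± 0.16, adjusted p = 0.034), which despite its name sits in the large subunit, and Mrpl50 (0.36 ± 0.15, adjusted p = 0.0402) completed the group. Of the 5, Mrpl9 and Mrps6 were called higher in each of the 15 alternative fits. Without either of the 0 h libraries or either of the 6 h libraries the count was 2, and with library totals or trimmed means (TMM) it was 2 or 3.

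Between 2 h and 6 h, 29 members were down-regulated and 13 up-regulated, against 21.2% and 24.1% of all tested genes. In either direction these were 42 members (54.5%), against 45.3% of all tested genes. Both 6 h libraries lay below both 2 h libraries for 41 members, where this held for 36.6% of all tested genes, and above them for 14, where it held for 38.2%. More than 2-fold, 7 were lower, where 8.02% of all tested genes were, and 2 were higher, where 10.1% were. The 2 higher were Mrps2 and Mrpl44, and the 7 lower were Mrpl24 (-1.84 ± 0.19), Mrpl10 (-1.69 ± 0.17), Mrpl14 (-1.50 ± 0.31), Mrpl55 (-1.36 ± 0.26), Mrps16 (-1.34 ± 0.20), Mrpl2 (-1.29 ± 0.27) and Mrpl36 (-1.23 ± 0.22). Both 2-fold groups were also named above, since the comparisons share their libraries. Leaving out 6 h replicate 1 gave 15 lower and 7 higher members and leaving out 6 h replicate 2 gave 18 and 8. The median log2 fold change of the members was -0.27, against 0.005 over all genes.

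Grouped by descent, the members found in all ribosomes (27 genes) had 11 lower and 16 without a call at 6 h against 0 h, with a median of -0.36. Those of bacterial descent (18 genes) had 8 lower and 2 higher with a median of -0.05, and those added in mitochondria (31 genes) had 15 lower and 3 higher with a median of -0.33. Over all tested genes 21.7% were lower and 23.7% higher, with a median of -0.004. No difference between these groups was tested.

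No comparison gave a call for 27 members. They include Mrps21, Mrpl30 and Mrpl12 among the more abundant ones, and 4 members with mean normalized counts under 100, which are Mrpl23, Mrpl53, Mrps28 and Mrps12, the protein of the decoding centre. Mrps12 had normalized counts of 75.5 and 83.4 at 0 h and 47.1 and 40.9 at 6 h, a log2 fold change of -0.85 ± 0.40 (adjusted p = 0.0704). It was called lower by edgeR, so that its call depended on the tool. Mrps36, now known as a subunit of the 2-oxoglutarate dehydrogenase complex and no part of the ribosome, had counts of 324 and 373 at 0 h, 464 and 354 after 2 h and 478 and 443 after 6 h. Its log2 fold change was 0.40 ± 0.20 at 6 h (adjusted p = 0.0956). The 2 members with named roles at the membrane and at stalled ribosomes were both lower at 6 h. Mrpl45, which anchors the ribosome to the inner membrane, changed by -0.31 ± 0.13 (adjusted p = 0.0387) and Mrpl58, a peptidyl-tRNA hydrolase built into the large subunit, by -0.76 ± 0.22 (adjusted p = 0.00149). Neither of these calls held in every alternative fit.

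The 3 proteins of the Mrps18 family, of which 1 is found in the large subunit and the others in separate places of the small subunit, gave different values. Mrps18a, the large-subunit form, had normalized counts of 907 and 932 at 0 h and 794 and 859 at 6 h (log2 fold change -0.15 ± 0.17, adjusted p = 0.496). Mrps18b had 645 and 603 at 0 h, 454 and 453 after 2 h and 343.5 and 271 after 6 h (-1.02 ± 0.18, adjusted p = 8.40e-08). Mrps18c had 487 and 521 at 0 h and 315 and 403 at 6 h (-0.49 ± 0.18, adjusted p = 0.0192). Both 6 h libraries lay below both 0 h libraries for each of the 3, which held for 39.6% of all tested genes. The differences between the 3 genes were not tested.

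Mrpl23, a protein at the exit of the tunnel, shares its reads with the processed copy Mrpl23-ps1. Expected counts of Mrpl23 were 52.7 and 64.5 at 0 h, 34.8 and 66.4 after 2 h and 17.5 and 42.4 after 6 h, while between 90.4% and 96.1% of the counts of the pair went to the copy. The level of Mrpl23 is therefore uncertain. With both summed, the log2 fold change was 0.07 ± 0.16 at 2 h and -0.38 ± 0.16 at 6 h against 0 h (adjusted p = 0.0492), an alternative chosen after seeing the data. Other members with non-whole counts include Mrpl24, Mrpl48, Mrpl19, Mrpl47 and Mrps18b, 11 in all, at a tolerance of 0.01. Without these 11, the summed TPM at 6 h was 77.3% of that at 0 h. Exons of 21 members overlap an expressed gene on the other strand and those of 5 members one on the same strand. Libraries were stranded, but whether the counting used strand is not given in the sources used here.

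The other genes of mitochondrial translation were examined by list. Of 5 subunits of the mitoribosome with other names, Ptcd3 was the one called lower at 2 h and at 6 h, where 14.2% and 21.7% of all tested genes were, and 3 were called lower at 6 h against 2 h, where 21.2% were. Ptcd3, a small-subunit protein that binds RNA, had a mean normalized count of 1587 at 0 h, 1159 after 2 h and 558 after 6 h, a log2 fold change of -1.51 at 6 h (adjusted p = 1.11e-31). Dap3, a small-subunit GTP-binding protein also known from cell death, had means of 1998 at 0 h and 1772 at 6 h (-0.17, adjusted p = 0.287). The remaining values at 6 h against 0 h were -0.35 for Chchd1, -0.29 for Aurkaip1 and -0.09 for Gadd45gip1.

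Of 26 factors that assemble the mitoribosome, 10 were lower and 0 higher at 2 h, and 16 were lower and 2 higher at 6 h against 0 h, with a median log2 fold change of -0.54 at 6 h. Over all tested genes 14.2% were lower and 12.3% higher at 2 h, and 21.7% and 23.7% at 6 h, which are the shares to set beside each of the following lists. At 2 h, an unadjusted p under 0.05 gave 0 higher and 14 lower and edgeR 0 higher and 12 lower. In this list, 6 of 26 (23.1%) were called lower at 2 h and higher from 2 h to 6 h, where 8.67% of all tested genes were. Mrm2, an rRNA methyltransferase, had means of 154 at 0 h, 39.7 after 2 h and 149 after 6 h. Rpusd4, a pseudouridine synthase, had means of 246 at 0 h, 77.8 after 2 h and 234 after 6 h, and Mterf4, which guides the methyltransferase Nsun4, had 457 at 0 h, 174 after 2 h and 532 after 6 h. These 3, picked after their values were seen, are among the 6. Ybey and Tfb1m instead fell to the end. Ybey, an RNA endonuclease, had means of 212 at 0 h, 68.7 after 2 h and 25.2 after 6 h, and Tfb1m, which methylates the small rRNA, had 126 at 0 h and 17.7 at 6 h (log2 fold change -2.83, adjusted p = 9.77e-10).

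Most enzymes that charge mitochondrial tRNAs fell late. Of 17 aminoacyl-tRNA synthetases, 2 were lower at 2 h, and 13 were lower and 2 higher at 6 h against 0 h, with a median log2 fold change of -1.07. Rars2, for arginine, had mean normalized counts of 642 at 0 h, 498 after 2 h and 149 after 6 h (-2.11). Pars2, for proline, was already low at 2 h, with means of 250.2 at 0 h, 42.8 after 2 h and 39.7 after 6 h. Mars2, for methionine, and Yars2, for tyrosine, were the 2 called higher at 6 h (0.76 and 0.47). Of 13 translation factors measured, 5 were lower and 0 higher at 2 h and 5 were lower and 0 higher at 6 h, where edgeR gave 0 higher and 7 lower and 0 higher and 6 lower. Mrrf, the ribosome recycling factor, fell from a mean of 745 to 231 at 6 h (-1.69, adjusted p = 1.11e-25), Gfm2, which recycles with it, from 735 to 232 (-1.67, adjusted p = 9.24e-20) and Mtif2, the initiation factor, from 846 to 357 (-1.24, adjusted p = 1.29e-10). Gfm1, the elongation factor, had means of 1083 and 1066 at these times (-0.02, adjusted p = 0.905).

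Of 13 genes for transcription and handling of mitochondrial RNA and DNA, 7 were lower at 2 h and 6 at 6 h against 0 h, and 4 (30.8%) were higher at 6 h than at 2 h, where 24.1% of all tested genes were. Tfam, which packages mitochondrial DNA and starts its transcription, had means of 1090 at 0 h, 605 after 2 h and 793 after 6 h. Tefm, the elongation factor of the mitochondrial RNA polymerase, had 158 at 0 h, 21.9 after 2 h and 35.9 after 6 h (-2.85 at 2 h, adjusted p = 9.11e-13). Of 10 regulators of nuclear genes for mitochondria, 3 were higher and 1 lower at 2 h, and 6 were higher and 4 not called at 6 h against 0 h, where 23.7% of all tested genes were higher. Nrf1 rose from a mean of 552 at 0 h to 2298 at 6 h (log2 fold change 2.06, adjusted p = 6.60e-56), Gabpb1, the partner of Gabpa, from 553 to 2037 (1.88, adjusted p = 1.05e-47) and Yy1 from 745 to 1537 (1.05, adjusted p = 6.97e-07). Gabpa, the DNA-binding partner of Gabpb1, rose from 1097 to 1790.0 (0.71, adjusted p = 0.00293). Ppargc1a, a coactivator of these factors, rose from 882 to 1343 (0.61, adjusted p = 0.00124).

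The 13 proteins encoded by mitochondrial DNA had 0 calls in either direction in any comparison by DESeq2, by edgeR and at an unadjusted p under 0.05. With the GC correction, 6 of them were called higher at 2 h, 1 higher and 4 lower at 6 h against 0 h, and 9 lower at 6 h against 2 h. Their summed TPM was 65583 and 40745 in the 2 h libraries, a wide gap between replicates that limits what the test could call, against 58167 and 52593 at 0 h. mt-Atp8 was listed at 0 TPM in all libraries and adds nothing to these sums. Cytosolic ribosomal proteins (80 genes) had 33 higher and 0 lower at 2 h (also 0 lower by edgeR and at an unadjusted p under 0.05) and 20 higher and 5 lower at 6 h. With the GC correction the higher counts were 59 and 39, and with library totals they were 1 and 1. Nuclear subunits of the respiratory chain (82 tested) had 11 higher and 0 lower at 2 h (with 0 lower by those tests too) and 8 higher and 12 lower at 6 h. With library totals 0 were higher at 2 h, and 1 was higher and 33 were lower at 6 h.

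**Figure D4:**
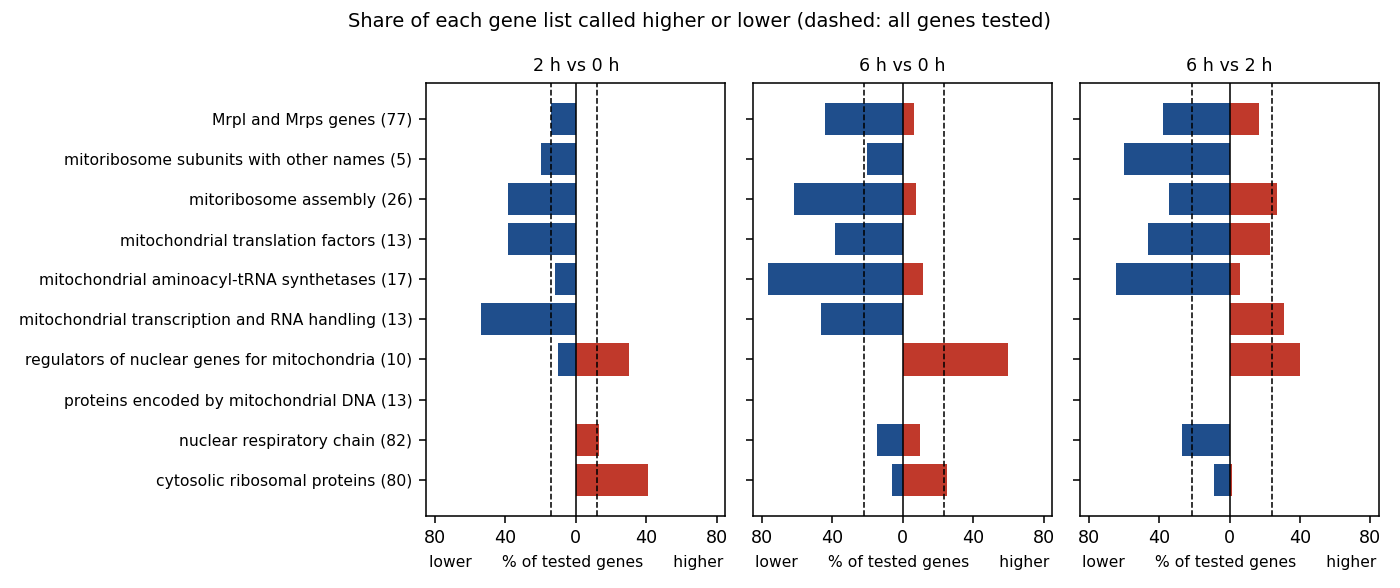
Share of the tested genes of each list (number tested in brackets) that was called lower (left, blue) or higher (right, red) at an adjusted p of at most 0.05 in the 3 comparisons; dashed lines are the shares over all genes tested. At 6 h against 0 h, 44.2% of the Mrpl and Mrps genes and 76.5% of the mitochondrial aminoacyl-tRNA synthetases are called lower, against 21.7% of all genes.

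Markers of cell types moved beside these values. Of 11 neuronal markers, 6 were higher and 2 lower at 2 h and 7 were higher and 2 lower at 6 h, with summed TPM of 3910 to 3979 at 0 h, 3328 to 3513 at 2 h and 3737 to 3890 at 6 h. Tubb3 was among the 2 called lower, against the direction of most of the list. Of 7 astrocyte markers, 0 were called at 2 h, also by edgeR and at an unadjusted p under 0.05, and 4 were lower at 6 h, with sums of 755 to 827 TPM at 0 h, 713 to 754 TPM at 2 h and 552 to 578 TPM at 6 h. Of 7 progenitor markers, 2 were higher at 2 h, and 3 were higher and 1 lower at 6 h, led by Vim, with sums of 332 to 366 TPM at 0 h, 384 to 441 TPM at 2 h and 649 to 661 TPM at 6 h. Oligodendrocyte-lineage markers (7 genes) summed to 126 to 149 TPM at 0 h, 96.2 to 114 TPM at 2 h, with 1 lower, and 123 to 133 TPM at 6 h, with 2 higher and 1 lower. Microglial and vascular markers (6 genes each) summed to at most 6.48 and 3.46 TPM in any library. At 6 h against 0 h 1 microglial marker was higher, and 2 vascular markers were higher and 1 lower, after 1 higher and 1 lower at 2 h. Cldn5, a vascular marker, was listed at 0 in 4 libraries. The part of cell composition in the fall of the members was not tested.

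Members were short transcripts with many close neighbours. The median longest transcript was 1866.5 bases, against 3558 bases over expressed protein-coding genes, and the median GC content 49.8%, against 49.6%. Across the 74 members whose counts averaged 50 or more, Spearman's rho of the log2 fold change at 6 h was -0.16 with GC content and -0.01 with transcript length, as a description across genes that are not independent replicates. At 2 h the values were 0.23 and -0.36. Across 11806 protein-coding genes with the same count limit, rho with GC content was -0.151 at 6 h and 0.116 at 2 h. With transcript length it was 0.2 at 6 h and -0.0325 at 2 h over these genes. The part of transcript length in the fall of the members was not tested. For 18 of the 78 members (23.1%), a protein-coding gene on the opposite strand started within 1000 bases upstream of the member's start. The median distance between the starts was 82 bases. Such a neighbour was found for 6.76% of all protein-coding genes and 9.66% of expressed ones.

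RSEM gives each gene an effective length, which is a mean over its transcripts weighted by their abundance and so moves with the mix of transcripts. For most members it was stable, but for 8 of 77 the mean at 6 h differed from that at 0 h by more than 0.2 on the log2 scale. For Mrps17 it was 652 and 624 bases at 0 h, 537 and 529 bases after 2 h and 935 and 861 bases after 6 h, so that both 6 h libraries lay above all others. For Mrpl1 it was 2883 and 2838 bases at 0 h, 2812 and 2389.6 bases after 2 h and 2151 and 2084 bases after 6 h. In TPM, Mrpl1 accordingly returned to 11.8 and 10.5 at 6 h from 11.5 and 10.7 at 0 h, while its normalized counts were lower, although not past the test. These lengths are given as a description and were not tested.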

How the data were processed

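Gene tables made by RSEM were deposited for 6 RNA-seq libraries. Before deposit, the authors removed adapters and poor-quality ends from the reads and estimated expression on mm10 with RSEM. The submitters' processing notes name RSEM 1.3.0 and Bowtie2 2.2.9. The expected counts deposited by the authors are estimates and need not be whole. The TPM deposited by the authors is corrected for length and scaled to the same total per library. Effective lengths are as deposited by the authors. The deposited FPKM was not used here.

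Gene identifiers were matched to GENCODE M21 (GRCm38), whose release may differ from that of the authors. Expected counts were rounded and tested with DESeq2 1.42.0 in R 4.3.3, with all 6 libraries in 1 fit, group as the only term, median-of-ratios scaling and fold changes without shrinkage. P-values were adjusted by the Benjamini-Hochberg method over the genes kept by independent filtering. The methods of the study name DESeq2 on raw counts and a stricter rule (adjusted p of at most 0.05 and over 2-fold), which was used beside the adjusted p alone. The other settings are choices made here. The fit was tested on simulated data. Alternatives were edgeR 4.0.16 (quasi-likelihood test), other scalings and filters, a replicate block, a GC correction by a loess curve per library (span 0.4, which also removes any difference between groups that follows GC content), fits on 2 groups, removal of each library and a test against a fold change of 2. Summing Mrpl23 with its copy was added after seeing the data. Libraries held 25959298 to 28573067 counts without molecular identifiers, and standard errors rest on a spread between replicate libraries that was estimated over all 3 groups and moderated across genes.

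Members are named if they were among the 3 highest or lowest in TPM at 0 h, passed the stricter rule, had 1 of the 5 largest or smallest called fold changes at a mean count of at least 100, or held a chosen structural role. Mrpl23, Mrpl53 and the members described beside neighbouring genes (Mrps5, Mrps34 and Mrpl40) fall outside this rule and were chosen after their values were seen. Other genes were picked from their lists after their values were seen. Members and lists were chosen with earlier results of these data known. Sequences are from RefSeq. No protein sequence was used here.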

Additional observations from a re-analysis of the deposited data

How the results depend on the processing

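With 2 replicates per group the fits rest on few degrees of freedom, and a fit without 1 library assumes that the lone sample varies like the other groups. No fold change of a called member changed sign in any alternative run, while the balance of calls among cytosolic ribosomal proteins turned with library totals. Replicate numbers were not given as shared batches: same-numbered libraries deviated together with r = 0.25 (0 h and 2 h), -0.01 (0 h and 6 h) and 0.14 (2 h and 6 h) over 12290 genes. With the replicate block 0 members were higher and 8 lower at 2 h, 4 and 27 at 6 h against 0 h and 11 and 28 at 6 h against 2 h. Over the fits without 1 library, members called lower ranged from 3 to 9 at 2 h, 19 to 34 at 6 h against 0 h and 15 to 29 at 6 h against 2 h, and members called higher from 2 to 6 and from 7 to 12 in the last 2 comparisons. The median relative to all genes ranged from -0.211 to -0.0135, from -0.361 to -0.295 and from -0.359 to -0.207. At 2 h, edgeR called 1 member higher, the GC correction 3, and GC correction with the block 2 higher and 7 lower, library totals 20 lower and the fit of only the 2 groups 7 lower. At 6 h against 0 h, 3 were higher with TMM and with GC correction and block, and 2 with library totals. The GC correction moved the median at 6 h against 2 h to -0.363, and to -0.365 with the block. Tested against a fold change of 2, 2 members were lower at 2 h, 4 lower and 0 higher at 6 h against 0 h, and 2 lower and 2 higher at 6 h against 2 h.

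With library totals, subunits with other names had 2 lower at 2 h and 4 at 6 h, assembly factors 0 higher at 6 h, translation factors 8 lower at 6 h, synthetases 5 lower at 2 h and 0 higher at 6 h, and regulators 1 lower at 6 h. Cytosolic ribosomal proteins had 1 higher at 2 h, 1 higher and 13 lower at 6 h, and 17 lower at 6 h against 2 h. The respiratory chain had 0 higher at 2 h, 1 higher and 33 lower at 6 h, and 34 lower at 6 h against 2 h. With the GC correction, 1 subunit with another name was higher at 6 h against 2 h, and the RNA handling list had 1 higher at 2 h, 2 higher at 6 h and 2 lower at 6 h against 2 h. Proteins of mitochondrial DNA had 6 higher at 2 h, 1 higher and 4 lower at 6 h, and 9 lower at 6 h against 2 h. Cytosolic ribosomal proteins had 59 higher at 2 h, 39 higher at 6 h, and 3 higher and 22 lower at 6 h against 2 h, and the respiratory chain 33 higher at 2 h and 37 lower at 6 h against 2 h. The cause of these shifts was not tested.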

Other observations

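Genes that start head to head with a member had varied courses. Ppp1r10, a regulatory subunit of protein phosphatase 1, starts 45 bases from Mrps18b and had mean normalized counts of 1327 at 0 h, 1615 at 2 h and 365 at 6 h, a log2 fold change of -1.86 at 6 h against 0 h (adjusted p = 7.89e-18 in DESeq2), beside -1.02 for Mrps18b. Zfp661, a zinc-finger gene 128 bases from Mrps5, had means of 372 at 0 h, 92.6 at 2 h and 45.1 at 6 h (-3.05 at 6 h), beside -0.53 for Mrps5. Eme2, which forms an endonuclease for repair and starts 29 bases from Mrps34, rose from 224 to 494.5 (1.14, adjusted p = 4.41e-10), beside -0.35 (adjusted p = 0.201) for Mrps34. Both Eme2 and Mrps34 hold non-whole counts and so share reads with other genes. Zfp189, which starts 83 bases from Mrpl50, rose by 0.63 at 6 h (adjusted p = 0.00479), as Mrpl50 did by 0.36. Hira, a histone chaperone that starts 175 bases from Mrpl40, rose by 0.36 (adjusted p = 0.00364) where Mrpl40 changed by -0.97 (adjusted p = 2.07e-06). These pairs were chosen after their values were seen, and no difference within a pair was tested.

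Mitd1, which starts 66 bases from Mrpl30, fell at 2 h with means of 122 at 0 h and 35.5 at 2 h (-1.78, adjusted p = 7.73e-06 in DESeq2), while Mrpl30 had 0.15 (adjusted p = 0.356). Sars2, the mitochondrial synthetase for serine, starts 172 bases from Mrps12. Sars2 had means of 120.2 at 0 h and 45.6 at 6 h (-1.40, adjusted p = 0.00357), beside -0.85 (adjusted p = 0.0704) for Mrps12. On the other strand, Gcfc2 overlaps exons of Mrpl19 and had a log2 fold change of -1.61 at 2 h (adjusted p = 5.67e-08) and 1.80 from 2 h to 6 h (adjusted p = 4.79e-10). Mrpl19 had -0.46 and 0.70 in these comparisons and holds non-whole counts, and the part of this overlap was not tested.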
